A study of Mus musculus with 6 samples.

Results

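The count tables of 6 mouse forebrain libraries list 112 small nucleolar RNA (snoRNA) entries among 23282 genes, taken as every gene whose symbol starts with Snora or Snord. Of these, 36 are Snora and 76 are Snord entries, and 67 of the 112, 25 Snora and 42 Snord, held at least 1 count in any library. The libraries came from male wild-type (WT) C57BL/6J mice of 8 to 10 weeks, 3 on a normal chow diet (NCD) and 3 on a high-fat diet (HFD), in which fat supplies most of the energy, for 10 days. The RNA was total RNA of a forebrain hemisphere, taken without olfactory bulbs and cerebellum, which the labels call whole forebrain. The comparison of HFD with NCD asks which transcripts of the brain differ after a short period of fat-rich feeding.

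SnoRNAs are short RNAs of the nucleolus that pair with ribosomal and spliceosomal RNA and guide its modification. Box C/D snoRNAs (Snord) guide 2′-O-methylation with the methyltransferase fibrillarin, while box H/ACA snoRNAs (Snora) guide pseudouridylation with the synthase dyskerin, and a few act in the cleavage of ribosomal RNA precursors instead. Most mammalian snoRNAs are cut out of the introns of host genes, and the mature molecule carries no poly(A) tail. The libraries were made with QuantSeq, which primes on poly(A), so a count on a snoRNA entry can stem from the host transcript, from an unprocessed intron, from a stretch of A bases or from a tailed snoRNA. Which of these gave the counts was not tested.

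The 4 entries with enough counts for the test across all genes are shown because they hold most of the snoRNA counts. The sequences are those of GENCODE vM21 on GRCm38 and run 5′ to 3′ on the strand of the snoRNA. Capitals mark the C box (TGATGA) nearest the 5′ end and the last D box (CTGA) of the 3 C/D sequences. In Snora81 they mark the first match to the H box pattern (ANANNA) in the middle of the sequence. Other matches follow it, and the hinge that holds the H box was not located.
Snord89: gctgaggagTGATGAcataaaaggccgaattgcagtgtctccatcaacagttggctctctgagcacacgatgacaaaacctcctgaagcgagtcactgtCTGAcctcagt
Snora81: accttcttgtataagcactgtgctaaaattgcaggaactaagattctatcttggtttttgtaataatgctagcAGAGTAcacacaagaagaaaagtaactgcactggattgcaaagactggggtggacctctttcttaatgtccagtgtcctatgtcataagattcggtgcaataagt
Snord104: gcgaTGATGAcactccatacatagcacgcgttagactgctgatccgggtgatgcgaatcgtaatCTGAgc
Snord49b: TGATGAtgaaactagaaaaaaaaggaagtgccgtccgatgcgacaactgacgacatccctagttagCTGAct

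Sequences were matched for 108 of the 112 entries, and the motifs were searched on the snoRNA strand alone. TGATGA was present in 49 of 72 Snord sequences and 0 of 36 Snora sequences, and CTGA was present in 72 of 72 and 19 of 36. The ACA of the H/ACA class lay within the last 10 bases of 34 of 36 Snora sequences and 7 of 72 Snord sequences. Snora81 was 1 of the Snora sequences without it. ANANNA, a loose pattern that occurs in most sequences of this length, was present in 36 of 36 Snora and 61 of 72 Snord sequences. Snord49b held the longest run of A, with a length of 8 bases, and was the only matched entry with a run that long. The run lies downstream of its C box. Entries with a run of 6 or more numbered 4, of which 3 had a count. A match of these letters describes the window and does not show a working box or a priming site.

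The positions set the 4 entries apart in their relation to a host. Snord89 lies at chr1:39548745-39548854 on the minus strand, in an intron of Gm15832, a symbol that RefSeq lists as a synonym of Rnf149, and 2442 bases past the 3′ end of Rnf149 as GENCODE draws it. Snora81 lies at chr16:23110756-23110933 on the plus strand, and all of its 178 bases fall in an annotated exon of Eif4a2. Here and below, an exon is one of any annotated transcript of the host. Whether the main host mRNA holds it was not checked. Snord104 lies at chr11:106500993-106501062 on the plus strand, within the span of the noncoding RefSeq gene Gm36220, which has no entry of its own in the tables. Snord49b lies at chr11:62603079-62603150 on the plus strand, in an intron of 2410006H16Rik. A stretch of 40 bases of Snora81 recurs in annotated transcripts of 4 other genes (Eif4a2, Gm49346, Gm22519 and Gm47309). No such stretch of the other 3 sequences recurs in an annotated transcript of another gene. Introns and the rest of the genome were not searched, so sharing of their reads with other places was not tested. Since the authors counted reads with multiple alignments too, counts of Snora81 may be shared with the 4 genes named.

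Counts on the snoRNA entries were few. They amounted to 1430 of 50295712 counts, or 0.00284%, with 190, 215 and 244 counts in NCD replicates 1, 2 and 3, against 218, 269 and 294 for HFD replicates 1, 2 and 3. The number of entries with a count was 36, 34 and 28 under NCD against 34, 38 and 31 under HFD, so that the ranges of the groups overlapped. Only 8 entries had a count in all 6 libraries, and 20 had counts in a single library. For the 45 entries with no count, 0 of 50295712 counts allows a level of up to 0.0597 CPM, counts scaled to a common library size, over all 6 libraries, for counting error only. SnoRNAs at 0 here include those of highly expressed hosts, such as Snord14c and Snord14d of Hspa8, a heat shock chaperone gene with 28076 counts.

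Snord89 held 440 counts, Snora81 221, Snord104 176 and Snord49b 94, together 65.1% of all snoRNA counts. The next entries were Snord118 with 32, Snora30 with 31, Snord45c with 30, and Snord72 and Snord87 with 22 each. Of the 63 entries with a count but too few for the test, 20 had 10 to 32 counts, 17 had 4 to 9 and 26 had 1 to 3. Per length, the mean level over all libraries was 9.6 CPM per 100 bases for Snord89, 4.94 for Snord104, 3.07 for Snord49b and 2.73 for Snora81. Snord104 and Snord49b, which are short, thus stood above Snora81 on this scale. This level was 0.89 for Snord45c, 0.725 for Snord72, 0.606 for Snord87, 0.574 for Snora30 and 0.464 for Snord118, with lengths from RefSeq. Since QuantSeq primes on poly(A), counts need not grow with length, and the order on this scale may come from the division alone. Entries with counts lay in exons and in introns of their hosts. The 50 entries in a host exon held 436 counts, with 31 of them seen, and the 53 in an intron held 778, also with 31 seen. Single entries made up much of both sums, Snora81 with 221 in exons, and Snord89 with 440 and Snord49b with 94 in introns. Across the 107 entries with a host in the tables, the rank correlation of snoRNA and host counts was -0.06, a description over entries that share the same libraries.

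**Figure D1:**
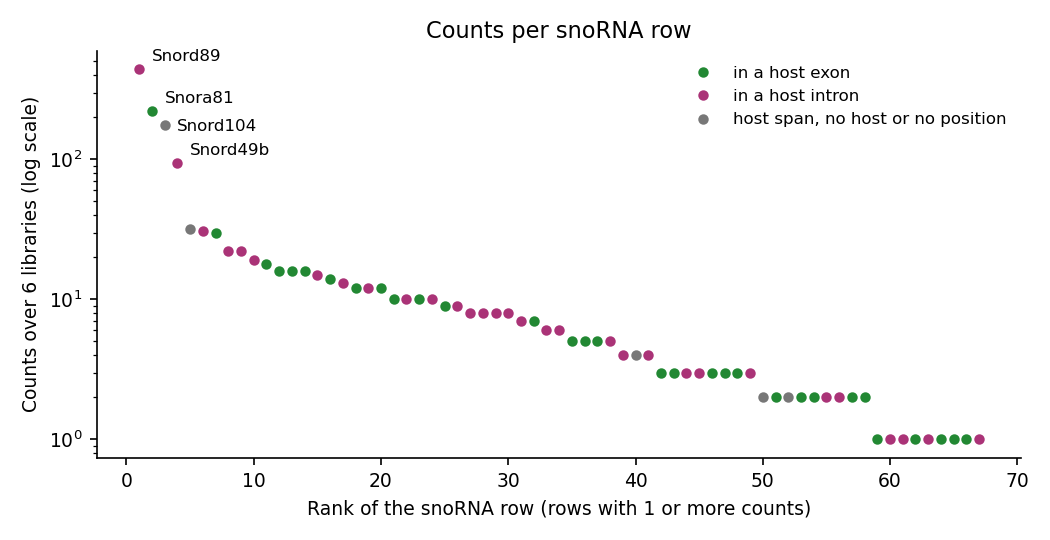
Counts summed over the 6 libraries (vertical axis, log scale) for each of the 67 snoRNA entries with a count, ranked from most to fewest (horizontal axis) and coloured by place in the host gene. Snord89, Snora81, Snord104 and Snord49b stand above all others, which hold 32 counts or fewer.

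Of the 4 tested entries, Snora81 and Snord89, 1 of each class, were higher on the HFD at an unadjusted p under 0.05. Levels are given as CPM after TMM normalization, and tests are edgeR's quasi-likelihood test on the whole table of 13771 genes past the count filter. Of all genes tested, 1.71% were higher at this threshold. For both entries the groups did not overlap, as was the case for 8.81% of all genes tested. No entry passed at an adjusted p under 0.05, and neither did any of the 13771 genes. At an unadjusted p under 0.05 edgeR called 507 genes, or 3.68%, and DESeq2 called 2 genes at an adjusted p under 0.05, neither of them a snoRNA. In bulk tissue a changed share of cells of a type and a changed amount of RNA per cell cannot be told apart.

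Snora81, an H/ACA snoRNA, was at 1.73, 3.24 and 2.95 CPM in NCD replicates 1, 2 and 3, against 6.33, 6.99 and 5.64 CPM for the HFD replicates in the same order, from 14, 30 and 28 and from 44, 64 and 41 counts. All 3 HFD libraries lay above all 3 NCD libraries, and NCD replicate 1 was the lowest. The NCD mean was 2.64 ± 0.801 CPM and the HFD mean 6.32 ± 0.678 CPM (SD, n = 3 each). By edgeR's quasi-likelihood test the log2 fold change was 1.25 (SE 0.31), with an unadjusted p of 0.000902 and a Benjamini-Hochberg adjusted p of 0.979, which ranged from 0.0892 to 1 over the alternatives. The unadjusted p stayed under 0.05 in all 15 alternatives, with the log2 fold change between 1.03 and 1.42.

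Snord89, a C/D snoRNA and the most counted entry, was at 6.17, 6.69 and 6.32 CPM under NCD against 10.9, 9.29 and 14.7 CPM under HFD, from 50, 62 and 60 and from 76, 85 and 107 counts. The NCD libraries were close together, and the HFD libraries were all higher and spread more widely, with replicate 3 the highest. The NCD mean was 6.39 ± 0.266 CPM and the HFD mean 11.6 ± 2.78 CPM (SD, n = 3 each). By edgeR's quasi-likelihood test the log2 fold change was 0.86 (SE 0.22), with an unadjusted p of 0.00132 and a Benjamini-Hochberg adjusted p of 0.979, which ranged from 0.136 to 1 over the alternatives. The unadjusted p stayed under 0.05 in all 15 alternatives, and the log2 fold change was lowest, at 0.65, without HFD replicate 3.

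Snord49b, a C/D snoRNA, was at 1.36, 0.971 and 1.79 CPM under NCD against 2.16, 1.75 and 3.57 CPM under HFD, from 11, 9 and 17 and from 15, 16 and 26 counts. The groups overlapped by a narrow margin, NCD replicate 3 lying just above HFD replicate 2. The log2 fold change was 0.84 (SE 0.45), close to that of Snord89, and the unadjusted p of edgeR's quasi-likelihood test was 0.0779. It was 0.0487 without NCD replicate 3, 0.0488 without HFD replicate 2 and 0.34 without HFD replicate 3, so that its side of the threshold turned on single libraries.

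Snord104, also a C/D snoRNA, was at 3.21, 3.67 and 2.63 CPM under NCD against 3.17, 1.97 and 7.01 CPM under HFD, from 26, 34 and 25 and from 22, 18 and 51 counts. HFD replicate 3 was the highest library and HFD replicate 2 the lowest. The log2 fold change was 0.33 (SE 0.41) with an unadjusted p of 0.431 in edgeR's quasi-likelihood test, and it was -0.32 without HFD replicate 3, with a p of 0.438. The sign of this value rested on 1 library.

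**Figure D2:**
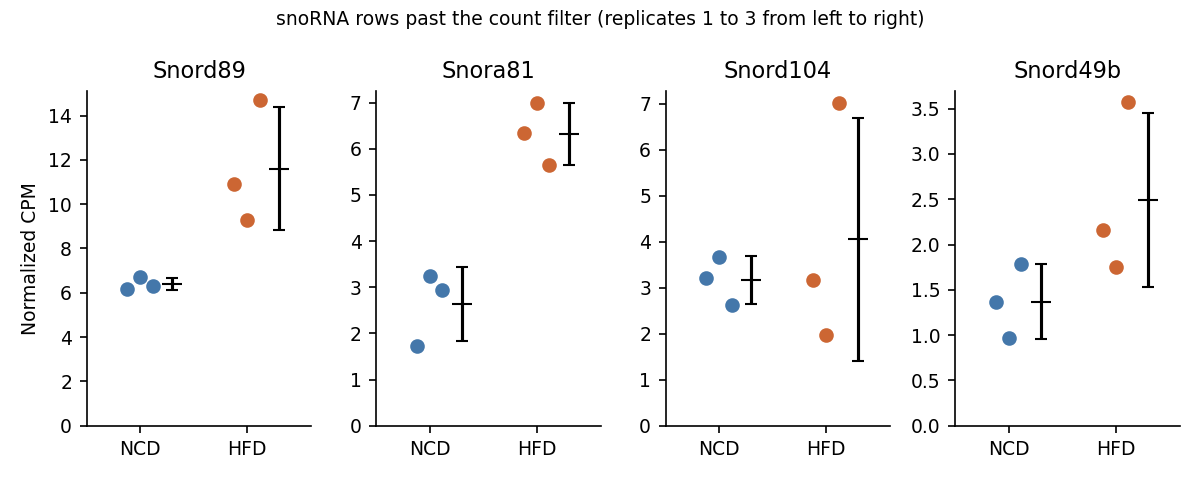
Normalized level (CPM, vertical axes from 0, each with its own scale) of the 4 tested snoRNA entries in the 3 NCD and 3 HFD libraries; points are libraries and the bars mean and SD. The groups are separate for Snord89 and Snora81, and HFD replicate 3 is the highest library for Snord89, Snord104 and Snord49b.

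HFD replicate 3, the highest library for 3 of the 4 entries, also held transcripts of the pituitary. The summed level of 5 pituitary marker genes was 1270 CPM there, against 6.01 to 13.2 CPM in the NCD libraries and 4.17 and 5.14 CPM in the other HFD libraries, and Fshb, a gonadotropin subunit gene, had 35 counts there and 0 in each of the other libraries. For the forebrain itself, the 5 identity markers were counted in every library and 0 of 5 differed at an unadjusted p under 0.05, as did 0 of 5 for neurons, astrocytes, oligodendrocytes, microglia and endothelium. Of 5 red blood cell markers 4 were higher on the HFD, with summed levels of 544 to 824 CPM against 421 to 519 CPM on the NCD and none at 0. Of 5 liver markers 4 were lower on the HFD, with Ahsg at 0 in at least 1 library. The log2 fold changes of the 5 ran from -2.23 to -0.06, with a median of -2.10. Their summed levels, 257 to 303 CPM on the HFD against 299 to 328 CPM, changed far less and so do not describe the lower genes. The part of these transcripts in the snoRNA results was not tested. Without HFD replicate 3, Snora81 and Snord89 kept an unadjusted p under 0.05.

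Summed over all 112 entries, the snoRNA level was 23.5, 23.2 and 25.7 CPM under NCD against 31.4, 29.4 and 40.4 CPM under HFD. Every HFD library lay above every NCD library, and HFD replicate 3 stood highest. The NCD mean was 24.1 ± 1.38 CPM and the HFD mean 33.7 ± 5.88 CPM (SD, n = 3 each), a difference of 9.62 CPM. The difference lay in the 4 tested entries, whose sum was 13.6 ± 1.05 CPM under NCD and 24.5 ± 5.71 CPM under HFD. The other 108 summed to 10.5 ± 1.73 and 9.22 ± 0.384 CPM. The 4 were set apart by a count filter on these same libraries, so the split is a description and partly follows from that choice. Snord49b, for example, had 9 counts in NCD replicate 2 and at least 15 in each HFD library. Without Snord89 the difference over all entries was 4.36 CPM, and without HFD replicate 3 it was 6.27 CPM. By class, the Snora entries summed to 6.67, 5.72 and 6.64 CPM against 8.49, 10.9 and 9.35 CPM, and the Snord entries to 16.8, 17.5 and 19.1 CPM against 22.9, 18.5 and 31.1 CPM. The Snora groups were separate, and the Snord groups overlapped at HFD replicate 2.

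**Figure D3:**
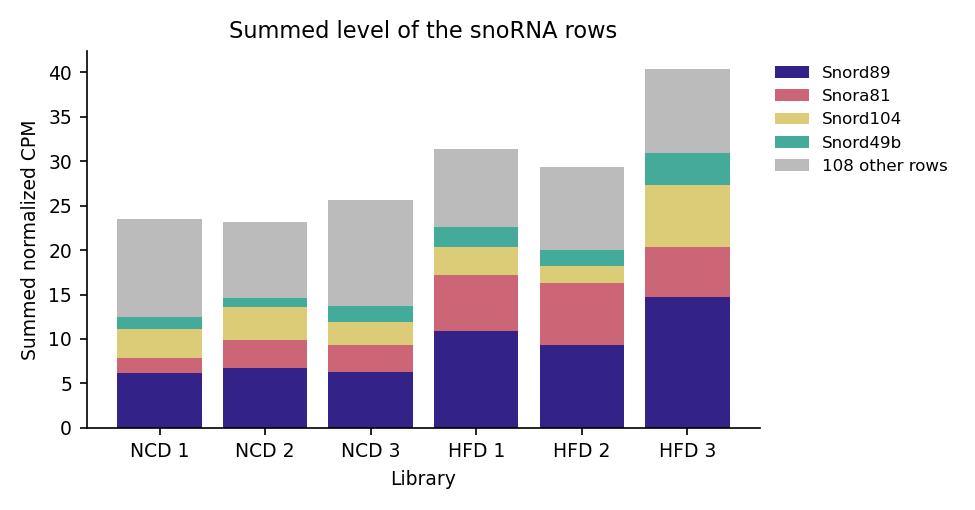
Summed normalized level (CPM, vertical axis from 0) of all 112 snoRNA entries in each of the 6 libraries, stacked by the 4 tested entries and the other 108 together. The HFD libraries reach 29.4 to 40.4 CPM and the NCD libraries 23.2 to 25.7 CPM, while the grey block of the other entries is on average no taller on the HFD. The 4 entries were set apart by a count filter on these same libraries.

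Among the 63 entries with a count but under the filter, levels showed no common direction. The mean was higher on the HFD for 28 and on the NCD for 35, and their counts amounted to 216 in the HFD and 283 in the NCD libraries. Fitted without a filter, over 18936 genes, 2 of 63 had an unadjusted p under 0.05 against 4.76% of all those genes, and groups did not overlap for 4 of 63 against 8.14%. Both shares were below those of all genes with a count. None of the 63 had a Benjamini-Hochberg adjusted p under 0.05 in that edgeR fit, as 0.121% of those genes had. The 4 without overlap were Snord118, Snora35 and Snord38a, higher on the HFD, and Snora7a, higher on the NCD, each from at most 32 counts.

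Snord45c, a C/D snoRNA within an exon of Rabggtb, the gene of an enzyme subunit that adds lipid anchors to Rab proteins, had 0, 4 and 22 counts under NCD against 2, 2 and 0 under HFD. Of its 30 counts 22 were in NCD replicate 3, and without that library the groups held similar counts. The log2 fold change in the unfiltered edgeR fit was -2.35 (SE 1.06) with an unadjusted p of 0.0267 and a Benjamini-Hochberg adjusted p of 0.941. Leaving out NCD replicate 3 moved it to -0.37, with an unadjusted p of 0.814. Leaving out HFD replicate 3 gave an unadjusted p of 0.0919, and DESeq2 gave 0.0782. Its host Rabggtb was at 64.1 ± 2.72 CPM under NCD against 68 ± 8 CPM under HFD (SD, n = 3 each).

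Snora28, an H/ACA snoRNA within an exon of Eif5, a translation initiation factor gene, had no count in the NCD libraries and 0, 6 and 4 counts in the HFD libraries. Its level over the HFD group was 0.428 CPM, or 3.83-fold the 0.112 CPM that a floor of 3 counts over the NCD group allows. This ratio leaves out the counting error of the 10 HFD counts, so it is not a least fold change. The unadjusted p of the unfiltered edgeR fit was 0.0135 and the Benjamini-Hochberg adjusted p 0.883, and without HFD replicate 2 the unadjusted p was 0.0806. Eif5 was at 284 ± 19.4 CPM under NCD against 279 ± 26.3 CPM under HFD (SD, n = 3 each).

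No other entry had an unadjusted p under 0.05. Snord118, the U8 snoRNA, which acts in the processing of large-subunit ribosomal RNA and is transcribed outside any host, had 4, 5 and 5 counts under NCD against 5, 9 and 4 under HFD, and its start lies 134 bases past the annotated end of Tmem107. Snora30, in an intron of the chromatin remodeller gene Srcap, had 5, 1 and 11 and 3, 5 and 6 counts, and Snord87, of the snoRNA host gene Snhg6, had 4, 3 and 3 and 3, 4 and 5. Both had counts in every library of both diets. Snord72, in an intron of the ribosomal protein gene Rpl37, had 10, 5 and 3 counts under NCD against 0, 1 and 3 under HFD, with an unadjusted p of 0.103 in the unfiltered edgeR fit. Single libraries carried several of the others: Snord7 had 10 of its counts in NCD replicate 3 and Snora31 8, and all 7 counts of Snora23 were in NCD replicate 1. Snord116l1 and Snord116l2, copies of the imprinted Snord116 cluster the loss of which is linked to Prader-Willi syndrome, lie in introns of Snhg14. Snord116l1 had 3, 6 and 1 counts under NCD against 3, 1 and 1 under HFD, and Snord116l2 had 2, 3 and 1 against 2, 0 and 0. Their 94 bases are identical, so with multiple alignments counted the reads cannot be assigned to either copy. Snora35, in an intron of the serotonin receptor gene Htr2c, had 2, 2 and 0 counts under NCD against 3, 4 and 2 under HFD.

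Counts of an entry were set against those of its host to see whether it followed the host transcript. Of the 112 entries, 107 lie in a host with an entry of its own, and these hosts are 77 distinct genes. Where both had counts, the snoRNA held a median of 0.143% of the counts of its host over 64 entries, with 12 above 1% and 28 under 0.1%. Snord89 held 11.6% of the counts of Rnf149, the highest share among the tested entries with a host, Snord49b 4.51% of those of 2410006H16Rik and Snora81 1.14% of those of Eif4a2. SnoRNAs of the same host differed widely. In Eif4a2, Snora81 had 221 counts and Snord2 had 0, and in 2410006H16Rik Snord49b had 94, Snord65 19 and Snord49a 8. In Rpl23a, Snord42b had 16 counts, Snord4a 10 and Snord42a 4. Snord4a and Snord42a also overlap an exon of Tlcd1 on the other strand, whose reads cannot be told apart from theirs unless the counting used strand.

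The log2 fold changes of the 3 hosts were smaller than those of their snoRNAs. That of Snord49b, 0.84, itself had an unadjusted p of 0.0779 by edgeR, so its gap to the host is uncertain. Eif4a2, which encodes an RNA helicase of translation initiation, was at 364 ± 44.1 CPM under NCD against 412 ± 67.7 CPM under HFD (SD, n = 3 each), with a log2 fold change of 0.18 (SE 0.12). Rnf149, which encodes a ubiquitin ligase, was at 75.1 ± 3.44 CPM and 75.1 ± 6.66 CPM, with a log2 fold change of 0.000672 (SE 0.11). 2410006H16Rik was at 38.9 ± 2.13 CPM and 44.8 ± 8.2 CPM, with a log2 fold change of 0.20 (SE 0.14). The unadjusted p-values of the 3 hosts were 0.173, 0.995 and 0.163 by edgeR.

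Within each library the counts of Snora81 were 0.432%, 0.856% and 0.936% of those of Eif4a2 under NCD and 1.79%, 1.76% and 1.16% under HFD. The counts of Snord89 were 8.61%, 8.92% and 8.04% of those of Rnf149 under NCD and 16.1%, 12.1% and 18.2% under HFD. Those of Snord49b were 3.63%, 2.56% and 4.34% of those of 2410006H16Rik under NCD and 5.24%, 4.48% and 6.6% under HFD. All 3 shares were higher in every HFD library than in every NCD library, Snord49b included, whose levels alone overlapped. For Snord49b the gap was narrow, 4.34% in NCD replicate 3 against 4.48% in HFD replicate 2, from 17 and 16 counts. The levels of Snora81 and Snord89 were already separate without the host. How often such ratios separate the groups over all genes was not tested. On the log2 scale, with 0.5 added to both CPM values, the ratio to the host differed by 0.98 for Snora81, by 0.80 for Snord89 and by 0.46 for Snord49b, the last being 0.22 with 2 added instead. A two-sided exact permutation test gave p = 0.1 for each, which is the smallest that 3 against 3 libraries allow, and 0.1 after Benjamini-Hochberg adjustment over the 3 ratios. Snord104 has no host entry and no ratio.

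**Figure D4:**
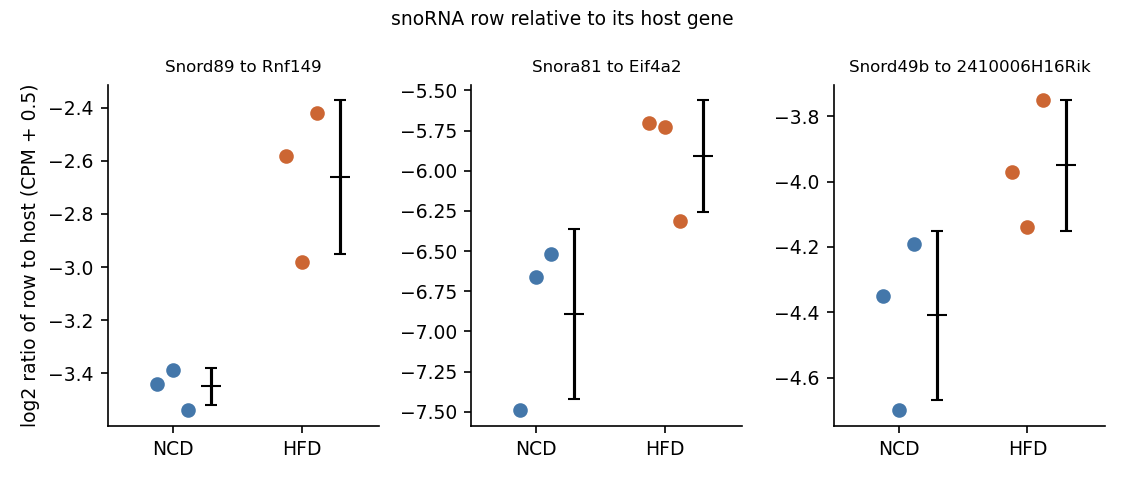
Log2 ratio of the snoRNA level to that of its host (CPM + 0.5 in both, vertical axes not starting at 0) for Snord89, Snora81 and Snord49b in the 3 NCD and 3 HFD libraries; points are libraries and the bars mean and SD. All HFD libraries lie above all NCD libraries for each of the 3, with differences of 0.80, 0.98 and 0.46. The levels of Snord89 and Snora81 were already separate without the host, and the gap of Snord49b is narrow. How often such ratios separate the groups over all genes was not tested.

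Over the wider set of hosts, 76 of the 77 could be tested, and 6 were higher and 1 lower on the HFD at an unadjusted p under 0.05, against 1.71% and 1.98% of all genes. The split was 2 higher and 1 lower with library size alone and 4 higher and 0 lower with quantile normalization. None passed adjustment, where DESeq2 called no host either. The 6 were all ribosomal protein genes (Rpl17, Rpl3, Rpl32, Rpl37, Rps3 and Rpsa), of 23 such hosts tested, and the 53 other hosts held the lower one, Rbmx, an RNA-binding protein gene. Ribosomal protein hosts had a median log2 fold change of 0.25, the 53 others one of 0.04. Rpl17 was at 70.1 ± 11.1 CPM under NCD against 97.3 ± 19.2 CPM under HFD (SD, n = 3 each), a log2 fold change of 0.47 (SE 0.14) with an unadjusted p of 0.00453, and its groups were separate. The others of the 6 had log2 fold changes of 0.27 to 0.34, and Rbmx one of -0.26 (SE 0.12). The number of hosts higher was 1 without NCD replicate 1, 11 without NCD replicate 2, 2 without NCD replicate 3, 15 without HFD replicate 1, 11 without HFD replicate 2 and 2 without HFD replicate 3. Of the snoRNAs of these 6 hosts, Snord72 of Rpl37, described above, and Snora7a of Rpl32 had more counts on the NCD, the latter with 2, 2 and 7 counts under NCD against 1, 0 and 0 under HFD. Snord83b of Rpl3 had 0, 2 and 0 counts under NCD against 2, 5 and 0 under HFD, and for Rps3 Snord15a had 1, 4 and 0 against 3, 0 and 0 and Snord15b 0, 0 and 0 against 2, 0 and 0. The others, Snora62, Snord43 and Snord58b, had no count.

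SnoRNAs act as particles with core proteins, and other proteins assemble, transport, process or degrade them. Of the C/D core, made of fibrillarin (Fbl), Nop56, Nop58 and Nhp2l1, 0 of 4 had an unadjusted p under 0.05, and the log2 fold changes were 0.02 for Fbl, 0.12 for Nop56, 0.05 for Nop58 and 0.01 for Nhp2l1, those of Fbl and Nhp2l1 being negative with library size alone. Of the H/ACA core, 1 of 4 was lower on the HFD. This was Gar1, which binds dyskerin at the active site, at 41.6 ± 7.93 CPM under NCD against 29.4 ± 5.08 CPM under HFD (SD, n = 3 each), with separate groups, as 8.81% of all genes tested had. Its log2 fold change was -0.50 (SE 0.16) with an unadjusted p of 0.0061, and it was -0.33 with a p of 0.0544 in edgeR's quasi-likelihood test without NCD replicate 3. Dyskerin itself (Dkc1), Nhp2 and Nop10 had log2 fold changes of 0.14, -0.07 and 0.11. Of 22 genes of assembly and transport tested, Ncbp2, a cap-binding subunit, was higher with a log2 fold change of 0.27 (SE 0.13) and an unadjusted p of 0.0482, and Xpo1, the export receptor that also carries snoRNAs towards the nucleolus, was lower with -0.29 (SE 0.13) and 0.0358. Of 21 genes of snoRNA processing and decay tested, 0 had an unadjusted p under 0.05. Of all 51 genes, 1 was higher and 2 were lower, where 1.71% of all genes tested were higher and 1.98% lower, and the split was 0 and 2 with library size alone and 0 and 3 with quantile normalization. None of these 51 genes passed Benjamini-Hochberg adjustment.

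**Figure D5:**
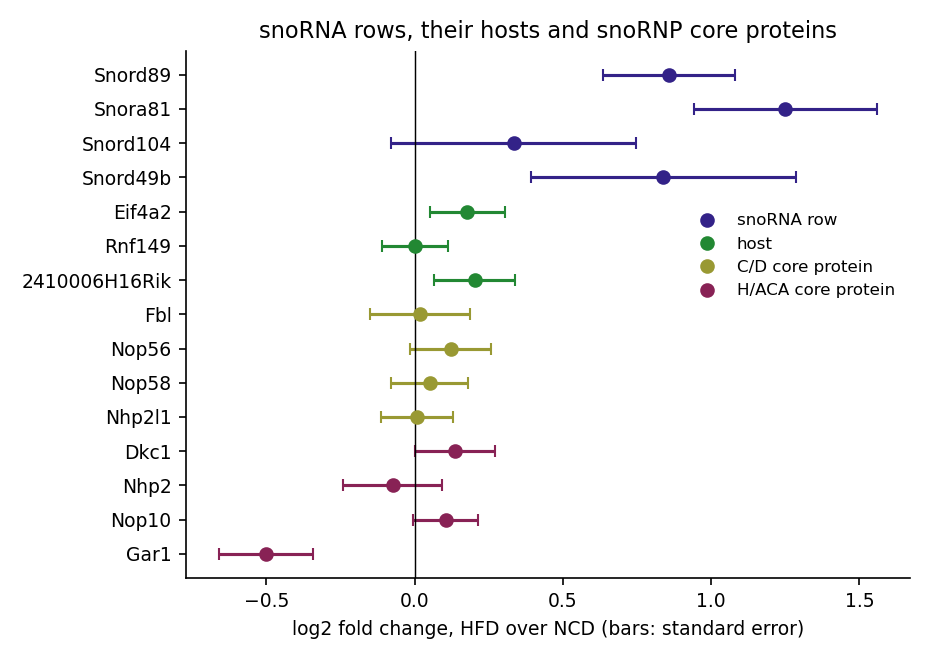
Log2 fold change of HFD over NCD (horizontal axis) with its standard error (bars) for the 4 tested snoRNA entries, 3 hosts and the core proteins of C/D and H/ACA particles. Snora81 at 1.25 and Snord89 at 0.86 lie to the right of their hosts Eif4a2 at 0.18 and Rnf149 near 0, and Gar1 at -0.50 is the lowest of the core proteins.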

How the data were processed

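RNA of 6 forebrain hemisphere libraries, 3 NCD and 3 HFD by their labels, was sequenced by the authors with QuantSeq 3′ kits, and the reads were trimmed, aligned to mm10 with Bowtie2 and counted per gene with Bedtools coverage from unique and multiple alignments. The deposited values are these whole-number read counts, and the quantile normalization of the methods is not part of them. The gene annotation and the use of strand are not given in the sources used here. Total counts lay between 6842785 and 9689372 per library, and no pair of libraries held near-identical counts. HFD replicate 3 stood furthest from the others over all genes. The chi-square per degree of freedom between the counts of 2 libraries was 14.1 to 18.1 for its pairs. It was 3.19 to 12.7 for the pairs without HFD replicate 3. A floor of 3 counts covers counting error only.

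The tests used edgeR 4.0.16 under R 4.3.3. All genes were fitted together after TMM normalization and filterByExpr (min.count 10, min.total.count 15), by glmQLFit and glmQLFTest with Benjamini-Hochberg adjustment over 13771 genes. Entries under the filter took their values from the same fit without a filter over 18936 genes. The labels do not say that replicates are separate animals, so p-values measure only the spread between these samples, which may be technical. The statistics were tested on simulated data.

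Positions, hosts and sequences came from GENCODE vM21 and, where it lists no host or synonym, RefSeq GRCm38.p6. A host is the gene that holds the snoRNA on its strand, taken with its exon where both occur. Exons were pooled over all annotated transcripts of a host, whatever their type. Entries named are all those past the filter, those under it with an unadjusted p under 0.05, their hosts, the core proteins, and host or biogenesis genes with an unadjusted p under 0.05. Other entries were named by their counts after these were seen. The members, lists and rules were chosen with earlier results of these data known. Hand-written lists of noncoding and of protein-coding hosts gave 0 of 17 and 6 of 51 tested genes higher and none lower, Rps20 being the only gene with an unadjusted p under 0.05 (0.049) that holds none of the entries. Lists of 5 markers each for choroid plexus, cerebellum and olfactory bulb gave 1 gene higher, none, and 2 lower.

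Alternatives were DESeq2 1.42.0, quantile normalization with limma 3.58.1, upper-quartile scaling, library size alone, genes over 2% of counts left out, robust dispersions, the replicate block, leaving out 1 library at a time, and as filters none or a least count of 10 per library. For the unfiltered values of Snord45c and Snora28, alternatives were added after the data were seen. Summaries and figures used Python 3.11.15, pandas 2.3.3, scipy 1.17.1 and matplotlib 3.10.9.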

Additional observations from a re-analysis of the deposited data

How the results depend on the processing

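Values rest on few counts, and 63 of the 67 snoRNA entries with a count could not be tested at the depth of these libraries with the filter. Snora81 and Snord89 kept their direction and an unadjusted p under 0.05 in all 15 alternatives, and without a filter 3 entries were higher and 1 was lower against 2 and 0. Deviations from the group means were close to uncorrelated between libraries of the same replicate number, at -0.0295, 0.0515 and -0.0574. Whether the numbers mark a shared processing order was not tested. With the replicate block the log2 fold change was 0.84 for Snord89 (unadjusted p of 0.00304) and 1.27 for Snora81 (0.00184), 371 of all genes had an unadjusted p under 0.05 against 507, and Snord45c and Snora28 had unadjusted values of 0.216 and 0.0663 by the same edgeR test. With libraries paired by replicate number, a two-sided exact sign-flip test gave p = 0.25 for each host ratio, the smallest that 3 pairs allow. The summed difference was 4.36 CPM without Snord89 against 9.62. Hosts higher at an unadjusted p under 0.05, 6 in the report, numbered 2 with library size alone, 14 without a filter, 1 with the block and 1 to 15 with a library left out. Hosts lower, 1 in the report, numbered 0 with DESeq2, with quantile normalization, without a filter and with the block, and 0 to 2 with a library left out. Of the snoRNP and biogenesis genes, 1 higher in the report, 0 were higher with DESeq2, library size alone, quantile normalization and the block, 2 without a filter and 0 to 2 with a library left out, and 0 to 3 were lower with a library left out against 2. Values that turned sign were those of genes near 0 and Snord104, at -0.32 without HFD replicate 3 and up to 0.68. Rnf149 was at -0.02 with library size alone, -0.01 with quantile normalization, -0.001 with at least 10 counts and -0.0016 with the block, and Fbl at -0.004 and Nhp2l1 at -0.01 with library size alone, Nhp2l1 also at -0.0013 with quantile normalization. With a library left out Rnf149 ranged from -0.05 to 0.07, Fbl from -0.15 to 0.14, Nop58 from -0.07 to 0.14, Nhp2l1 from -0.10 to 0.08, Dkc1 from -0.02 to 0.21 and Nhp2 from -0.19 to 0.08. The cause was not tested for these. Snord49b could not be tested with at least 10 counts in every library, and the choice of the host with the most counts was not run, since no tested entry lies in a second host with counts.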
